A study of Homo sapiens with 6 samples.

Results

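The genes described here encode the enzymes that add or remove acetyl and methyl groups on histones, together with the BRD bromodomain proteins, in THP-1 cells with and without knockdown of NFIC. The members were protein-coding genes of the deposited count table whose symbol begins with HDAC, SIRT, KAT, KMT, KDM, SETD or BRD and follows the numbering of that family, plus EP300, CREBBP, DOT1L and MEN1. The rule for members leaves out 2 KDM genes by name, which are not reported here. The members so chosen were 69 of the 33981 genes in the table. They comprised 18 deacetylases, 10 acetyltransferases, 19 methyltransferases including the cofactor MEN1, 15 demethylases and 7 bromodomain proteins. THP-1, a human line of leukemic monocytes, carries the KMT2A::MLLT3 (MLL::AF9) fusion gene. All 6 samples were THP-1 cells infected with a lentivirus and sorted for GFP 4 days after infection. The control group was given scrambled shRNA (shScr, n = 3) and the NFIC KD group was given the NFIC shRNA sh494 (n = 3). The labels call the control a scrambled shRNA, whereas the methods of the study describe a control vector with GFP alone. The knockdown rests on 1 hairpin in 1 cell line, and nothing in the labels says whether the 3 samples of a group came from separate infections, so p-values measure the spread between these samples, which may be technical.

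Acetylation of histone tails by acetyltransferases loosens chromatin and creates binding sites for bromodomains, while deacetylases remove the mark. Methylation depends on the residue, with H3K4 methylation by the KMT2 and SETD1 enzymes found at active promoters and enhancers and H3K79 methylation by DOT1L found along transcribed genes. In leukemia with a KMT2A rearrangement, the fusion protein depends on menin (MEN1), on DOT1L and on the transcription elongation machinery, and the demethylase KDM1A and several deacetylases are known drug targets. KMT2A reads from the normal allele and from the part of the gene retained in the fusion were counted together in this table. A count table measures mRNA in the whole sample, so fewer cells of a type and less RNA per cell cannot be told apart.

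The hairpin sh494 targets NFIC, a transcription factor of the nuclear factor I family, and its target is shown because every comparison rests on it.
sh494 target: gatggacaagtcaccattcaa
The target was found at chr19:3449042-3449062 on the plus strand of GRCh38, in the coding sequence of NFIC exon 7, with 0 mismatches. No transcript of the 69 members held a site with fewer than 5 mismatches to these 21 bases, and the 2 members with a 5-mismatch site were BRD2 and KAT6A. NFIC had 911, 1019 and 904 reads with scrambled shRNA and 399, 518 and 493 reads with NFIC shRNA, listed in the order of replicates 1 to 3 as in all later lists. The groups did not overlap, and the log2 fold change of NFIC was -0.99 (SE 0.0723, edgeR adjusted p = 3.73e-09).

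Total counts per sample lay between 20369543 and 24809720, and 3 counts, taken as the smallest detectable amount, were worth 0.122 to 0.146 CPM (counts scaled to library size with TMM factors), a limit that covers counting error only. All 12 monocytic and myeloid markers were present at 1 CPM or more, with a summed level of 4193 to 4422 CPM in scrambled and 3602 to 3757 CPM in NFIC KD samples. Of 8 T and NK cell markers 4 were in the table, 2 of them at 1 CPM or more, and CD3D had no read in 5 samples. The list summed to 7.23 to 7.52 CPM in scrambled and 2.34 to 3.06 CPM in NFIC KD samples. Of 6 B cell markers 5 were in the table, all 5 at 1 CPM or more, and they summed to 24.5 to 27.1 and 16.5 to 18.3 CPM. Erythroid markers summed to at most 0.173 CPM in any sample. Stromal and epithelial markers summed to 154 to 175 and 235 to 263 CPM, with only COL1A1 and PECAM1 at 1 CPM or more. The share of counts on mitochondrial genes was 3.54% to 3.71% in scrambled and 3.72% to 4.11% in NFIC KD samples. Transcripts of cell division moved with the groups as well. With NFIC KD 14 of 16 G2/M genes (87.5%) were higher and 0 lower, against 29.6% and 30.3% of all genes tested. The G2/M genes summed to 1662 to 1813 CPM in scrambled and 2315 to 2932 CPM in NFIC KD samples. Their part in the results on histone enzymes was not tested.

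Of the 69 members 68 passed the filter on low counts and were tested, and only the mitochondrial sirtuin SIRT4 was too low to test, at 0.0485 to 0.517 CPM. With NFIC KD 30 members (44.1%) were higher, 15 (22.1%) were lower and 23 were not called at an edgeR adjusted p under 0.05. Among all 19182 genes tested 29.6% were called higher and 30.3% lower, and among the 13800 protein-coding genes 33.0% were higher and 32.4% lower. The median log2 fold change was 0.11 over the members, -0.01 over all genes and -0.0009 over protein-coding genes. Every NFIC KD sample lay above every scrambled sample for 32 members and below for 16, where 32.2% and 33.0% of all genes did so.

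The changes were small in size. The median absolute log2 fold change was 0.26 over the members and 0.37 over all genes, and 9 members (13.2%) were called with more than a 1.5-fold difference, against 28.5% of all genes. Only KAT2A and KAT2B differed by more than 2-fold (2.94% of members, against 11.9% of all genes). The members were more highly expressed than most genes, with a median of 68.9 CPM compared with 13.98 CPM over all genes and 24.7 CPM over protein-coding genes.

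**Figure D1:**
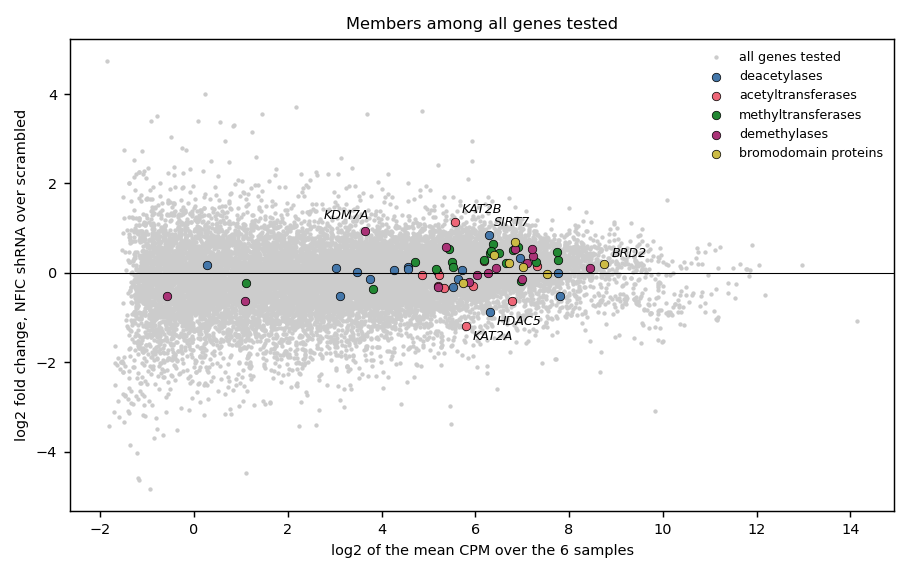
Log2 fold change of NFIC shRNA over scrambled shRNA (y axis) against log2 of the mean CPM over 6 samples (x axis) for the 19182 genes tested (grey) and the 68 members tested (coloured by role). The members lie between -1.19 and 1.13 and mostly in the upper part of the expression range.

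By role, the methyltransferases and bromodomain proteins had most of their members higher. Of the methyltransferases 14 of 19 were higher (73.7%) and 2 lower (10.5%) with NFIC KD, at a median log2 fold change of 0.29. Among protein-coding genes 33.0% were higher and 32.4% lower. Of the bromodomain proteins 5 of 7 were higher and 1 lower, at a median of 0.20. The demethylases were mixed, with 6 of 15 higher, 3 lower and a median of 0.11. Of the acetyltransferases 3 of 10 were higher and 5 lower, at a median of -0.17, and of the 17 deacetylases tested 2 were higher, 4 lower and 11 not called, at a median of 0.04. The shares of higher calls among the demethylases and acetyltransferases lay nearer to 33.0% than those of the methyltransferases and bromodomain proteins. The deacetylases were under both shares of protein-coding genes, at 11.8% and 23.5%. The share of lower calls was above 32.4% only in the acetyltransferases. These counts by role describe the members and were not tested against each other or against protein-coding genes.

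**Figure D2:**
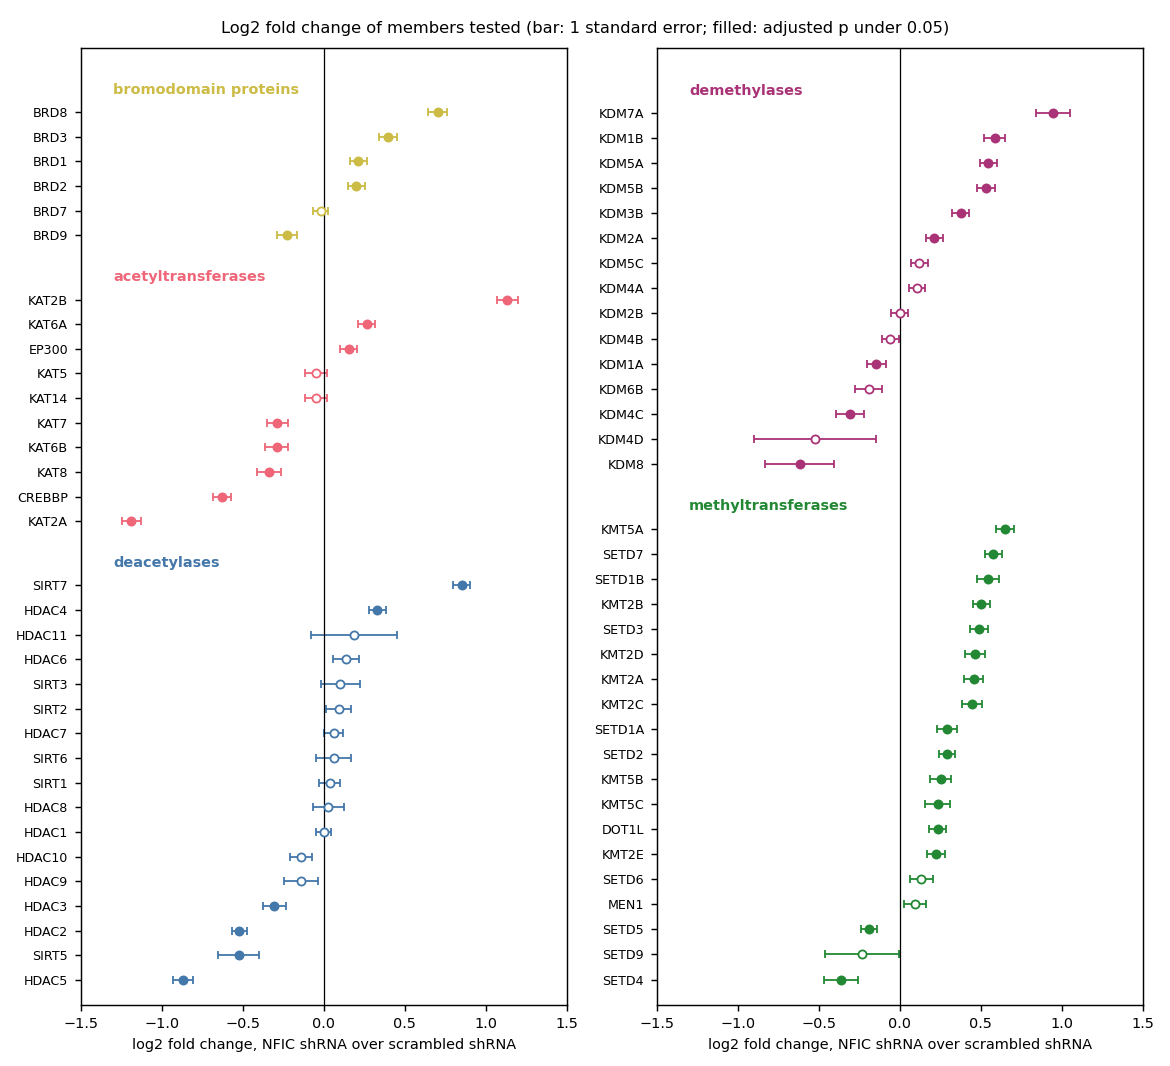
Log2 fold change of NFIC shRNA over scrambled shRNA (x axis) for 67 of the 68 members tested, ordered within 5 roles, with a bar of 1 standard error on either side. Filled points have an adjusted p under 0.05, and 14 of the 19 methyltransferases are filled points to the right of 0.

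Levels were also summed per length over each role. These sums, and the shares of pairs and the order of levels per length given below, depend on the deposited gene lengths. Summed FPKM (fragments scaled to gene length and library size) of the methyltransferases was 152, 151 and 149 in scrambled and 189, 187 and 200 in NFIC KD samples, a ratio of means of 1.27. The summed FPKM of the acetyltransferases was 82.2, 81.0 and 81.5 in scrambled and 72.5, 71.2 and 75.9 in NFIC KD samples, a ratio of 0.897. Without KAT2A, a choice made after seeing the data, the sum was 61.6, 60.8 and 61.6 FPKM in scrambled samples. It was 63.7, 62.0 and 67.1 FPKM in NFIC KD samples, a ratio of 1.05. That sum still holds KAT2B, which rose from a mean of 5.61 to 12.4 FPKM, and CREBBP, which fell from 8.58 to 5.60 FPKM. It therefore does not show that the lower sum rested on KAT2A alone, and a sum without both KAT2A and KAT2B was not computed. For all 3 of these sums the groups did not overlap, and an exact two-sided permutation test gave p = 0.1, the smallest that 3 against 3 samples allow. The summed FPKM of the deacetylases was 153 ± 1.32 in scrambled and 150 ± 1.55 in NFIC KD samples (SD, n = 3), and the groups overlapped (exact permutation p = 0.2). The demethylases went from 169 ± 1.17 to 189 ± 1.57 FPKM, a ratio of 1.11. The bromodomain proteins went from 131 ± 3.37 to 154 ± 5.89 FPKM, a ratio of 1.18. Neither of these roles overlapped between groups (exact permutation p = 0.1 for each).

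The H3K4 methyltransferases of the KMT2 and SETD1 family rose together. All 6 catalytic genes, KMT2A (MLL), KMT2B, KMT2C, KMT2D, SETD1A and SETD1B, were higher with NFIC KD, where 33.0% of protein-coding genes were. KMT2A, which gives the amino-terminal part of the MLL::AF9 fusion protein, was at 67.7, 66.5 and 66.5 CPM in scrambled and 90.7, 87.1 and 97.5 CPM in NFIC KD samples. Each NFIC KD sample was above each scrambled sample, and the log2 fold change was 0.46 (SE 0.0568, adjusted p = 2.35e-06). Of the exon bases of KMT2A 18.3% also belong to another gene on the same strand. SETD1B, the catalytic subunit of 1 of the SETD1 complexes, was at 36.3, 34.5 and 34.3 CPM and rose to 50.6, 47.6 and 54.9 CPM, without overlap (log2 fold change 0.54, SE 0.0681, adjusted p = 2.54e-06). KMT2B, KMT2C, KMT2D and SETD1A had log2 fold changes of 0.50, 0.45, 0.46 and 0.29. Reads of KMT2C are uncertain, because parts of it have near-identical copies elsewhere in the genome, such as the BAGE genes. Summed over the 6 genes, the level was 39.3, 37.5 and 36.3 FPKM in scrambled and 51.3, 49.1 and 54.3 FPKM in NFIC KD samples, a ratio of 1.37 (exact permutation p = 0.1).

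MEN1 and DOT1L, the targets of menin and DOT1L inhibitors, moved less. MEN1, the scaffold that binds the amino terminus of KMT2A and KMT2B, was at 36.1, 34.0 and 33.7 CPM in scrambled and 35.6, 36.3 and 38.7 CPM in NFIC KD samples. The groups overlapped, and MEN1 was not called (log2 fold change 0.09, SE 0.0673, adjusted p = 0.243). DOT1L, the only H3K79 methyltransferase of the list, was at 147, 148 and 137 CPM and at 165, 174 and 168 CPM with NFIC KD. The groups did not overlap, and DOT1L rose by 0.23 on the log2 scale (SE 0.0512, adjusted p = 7.91e-04).

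**Figure D3:**
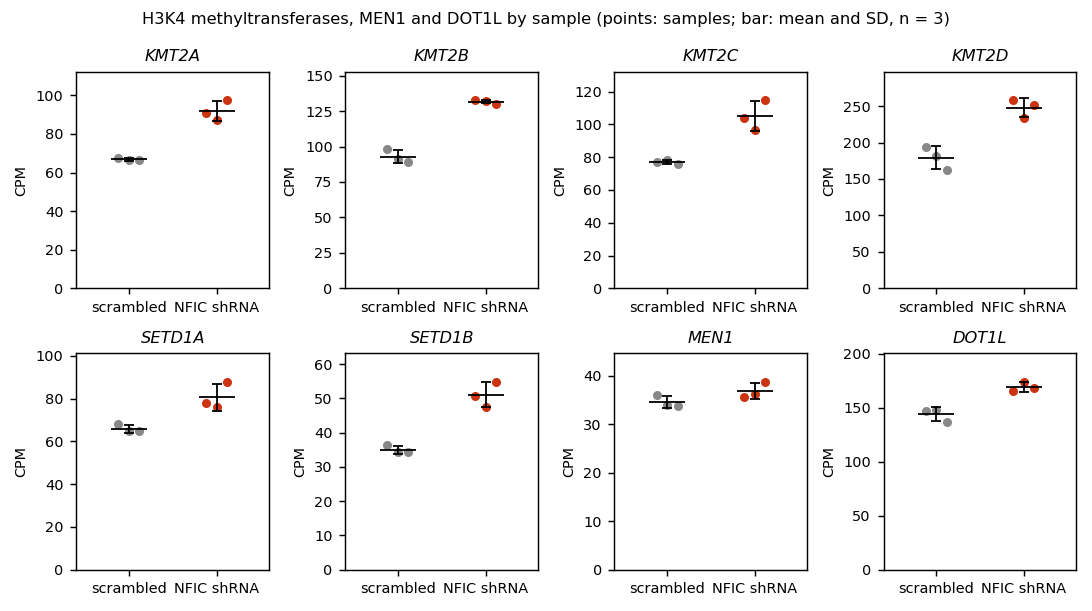
CPM (y axis, from 0) of KMT2A, KMT2B, KMT2C, KMT2D, SETD1A, SETD1B, MEN1 and DOT1L in the 3 scrambled samples (grey) and the 3 NFIC shRNA samples (red), with mean and SD. The 2 groups are apart in every panel except that of MEN1.

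The other lysine methyltransferases were mostly higher as well. KMT5A, which places the first methyl group on H4K20 and is controlled through the cell cycle, was at 61.9, 67.5 and 64.4 CPM in scrambled and 97.8, 100.3 and 105 CPM in NFIC KD samples. This was the highest log2 fold change of the methyltransferases, at 0.65 (SE 0.0563, adjusted p = 3.15e-08), without overlap of the groups. KMT5B and KMT5C, which add further methyl groups to H4K20, had log2 fold changes of 0.25 and 0.23. KMT5C was close to the threshold (adjusted p = 0.0132), and its call was lost with upper-quartile scaling (adjusted p = 0.0558), without scrambled replicate 3 (adjusted p = 0.0720) and without NFIC shRNA replicate 2 (adjusted p = 0.0512). The H3K36 methyltransferase SETD2 rose by 0.29 on the log2 scale.

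SETD7, which methylates H3K4 and several other proteins, was at 96.4, 95.1 and 97.7 CPM in scrambled and 141, 139.6 and 151 CPM in NFIC KD samples. The groups were well apart, and the log2 fold change was 0.58 (SE 0.0518, adjusted p = 4.66e-08). SETD3, a histidine methyltransferase of actin, rose by 0.49 on the log2 scale. SETD4 went the other way, at 16.0, 14.95 and 16.7 CPM in scrambled and 13.3, 13.2 and 10.4 CPM in NFIC KD samples (log2 fold change -0.36, SE 0.105, adjusted p = 0.00623). SETD5 fell from 135, 137 and 128 CPM to 116, 117 and 117 CPM (log2 fold change -0.19, SE 0.04996, adjusted p = 0.00360), whereas KMT2E, the protein most like it, rose by 0.23 on the log2 scale. Neither SETD4 nor SETD5 overlapped between groups. SETD6 and SETD9 had log2 fold changes of 0.13 and -0.23 and were not called.

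Among the acetyltransferases the largest differences were in the pair KAT2A (GCN5) and KAT2B (PCAF), related enzymes that take the same place in the SAGA and ATAC complexes and acetylate histone H3. KAT2A (chr17:42113111-42121367 of GRCh38, minus strand) was at 78.6, 77.4 and 75.7 CPM in scrambled and 33.4, 34.996 and 33.2 CPM in NFIC KD samples. KAT2B (chr3:20040446-20154404, plus strand) was at 28.9, 30.3 and 29.6 CPM in scrambled and 65.0, 61.8 and 67.8 CPM in NFIC KD samples. The pair changed in opposite directions, with log2 fold changes of -1.19 for KAT2A (SE 0.0587, adjusted p = 4.28e-11) and 1.13 for KAT2B (SE 0.0632, adjusted p = 1.63e-10), and neither overlapped between groups. In length-scaled units KAT2A made up 78.98%, 77.9% and 77.9% of the summed FPKM of the pair in scrambled samples and 41.5%, 43.9% and 40.4% in NFIC KD samples. The sum of the pair was 25.8 ± 0.295 FPKM in scrambled and 21.4 ± 0.484 FPKM in NFIC KD samples (SD, n = 3), a ratio of 0.828. Of the exon bases of KAT2A 10.7% also belong to an overlapping gene on the same strand, so part of its reads cannot be assigned with certainty.

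CREBBP and EP300, the paralogous coactivators CBP and p300, also went in opposite directions. CREBBP was at 139, 126 and 138 CPM in scrambled and 86.3, 87.0 and 87.2 CPM in NFIC KD samples, without overlap (log2 fold change -0.63, SE 0.0543, adjusted p = 2.85e-08). EP300 was at 154, 149 and 149.8 CPM in scrambled and 169, 156 and 178 CPM in NFIC KD samples. The EP300 groups did not overlap, but the difference was small (log2 fold change 0.15, SE 0.0544, adjusted p = 0.0224), and the call was lost with upper-quartile scaling (adjusted p = 0.123), without scrambled replicate 2 or 3 (adjusted p = 0.0626 and 0.0780) and without NFIC shRNA replicate 1 or 3 (adjusted p = 0.0634 and 0.0668). CREBBP made up 40.2% ± 1.12 of the summed FPKM of CREBBP and EP300 in scrambled and 28.1% ± 1.352 in NFIC KD samples (SD, n = 3). The summed level of the 2 genes overlapped between groups, at 21.3 ± 0.647 and 19.9 ± 1.05 FPKM.

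Of the 5 MYST acetyltransferases 3 fell and 1 rose, where 32.4% of protein-coding genes were called lower and 33.0% higher. KAT8 (MOF), the H4K16 acetyltransferase, was at 47.0, 41.3 and 46.6 CPM in scrambled and 35.7, 37.8 and 33.1 CPM in NFIC KD samples. It did not overlap between groups (log2 fold change -0.34, SE 0.0727, adjusted p = 6.65e-04). KAT6B and KAT7 (HBO1) both had a log2 fold change of -0.29. KAT6A (MOZ), itself a fusion partner in other leukemias, was at 64.1, 66.8 and 67.2 CPM and rose to 77.8, 78.8 and 81.4 CPM (log2 fold change 0.26, SE 0.0542, adjusted p = 4.34e-04). KAT5 (TIP60) and KAT14, an ATAC subunit, were at a log2 fold change of -0.05 each and were not called.

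**Figure D4:**
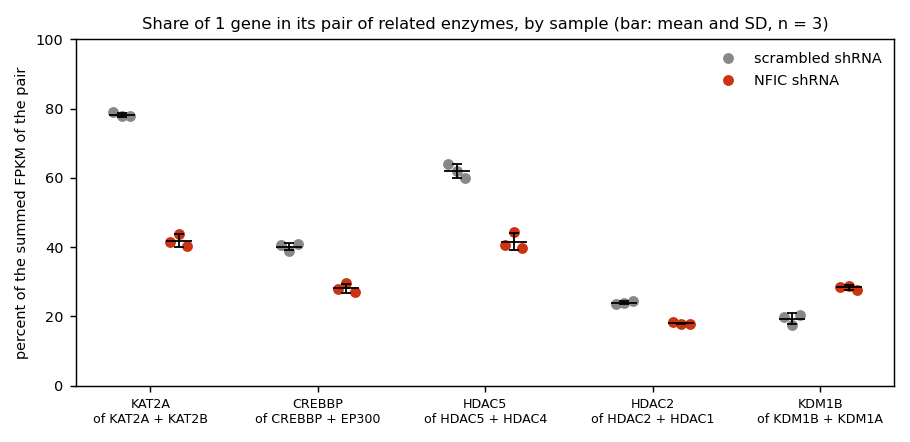
Percent of the summed FPKM of a pair of related enzymes that comes from the gene named first (y axis), in the 3 scrambled samples (grey) and the 3 NFIC shRNA samples (red), with mean and SD. KAT2A goes from 78.3% to 41.9% of its pair, CREBBP, HDAC5 and HDAC2 are also lower with NFIC shRNA, and KDM1B is higher.

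The deacetylases were the role in which most members were not called. HDAC5, a class IIa deacetylase that represses MEF2 targets, was at 109, 99.7 and 99.3 CPM in scrambled and 54.9, 60.9 and 52.6 CPM in NFIC KD samples. The groups were far apart, and the log2 fold change was -0.87 (SE 0.0636, adjusted p = 3.98e-09). HDAC4, of the same class, was at 107, 107 and 116 CPM in scrambled and 140.0, 134 and 140.4 CPM in NFIC KD samples, again without overlap but higher (log2 fold change 0.33, SE 0.0523, adjusted p = 3.46e-05). HDAC5 went from 62.1% ± 1.98 to 41.6% ± 2.45 of the summed FPKM of HDAC5 and HDAC4. Of the exon bases of HDAC5 24.0% lie opposite the gene G6PC3, and since the library kit as described does not mark strand, reads of the overlap cannot be told apart. HDAC7 and HDAC9, the other class IIa genes, had log2 fold changes of 0.06 and -0.14 and were not called.

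Class I deacetylases, which apart from HDAC8 are catalytic subunits of the Sin3, NuRD, CoREST or NCoR complexes, had 0 members higher and 2 lower of 4. The shares over protein-coding genes were 33.0% higher and 32.4% lower. HDAC2 was at 259, 268 and 264 CPM in scrambled and 187, 179.9 and 184 CPM in NFIC KD samples, a log2 fold change of -0.52 (SE 0.0471, adjusted p = 5.15e-08) without overlap. HDAC1, which occupies the same complexes, was at 216, 222 and 211 CPM in scrambled and 217, 215 and 219 CPM in NFIC KD samples. HDAC1 overlapped between groups and was not called, with a log2 fold change of -0.0003 (SE 0.0472, adjusted p = 0.995), so that HDAC2 went from 23.9% to 18.0% of their summed FPKM. The size of this share depends on the deposited gene lengths, 15333 bases for HDAC2 and 3966 for HDAC1. In CPM HDAC2 was above HDAC1 in scrambled samples. HDAC3, the NCoR deacetylase, fell by 0.30 on the log2 scale. HDAC8 (log2 fold change 0.03) was not called, and neither were HDAC6, HDAC10 and HDAC11, at 0.14, -0.14 and 0.19. The value of HDAC10 is uncertain, because 55.8% of its exon bases are shared with MAPK12 on the same strand.

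The sirtuins are NAD-dependent deacetylases. SIRT7, a nuclear and nucleolar enzyme that removes acetyl groups from H3K18, was at 55.8, 54.2 and 58.3 CPM in scrambled and 102, 99.9 and 102 CPM in NFIC KD samples. Every NFIC KD sample was far above the scrambled samples, and the log2 fold change was 0.85 (SE 0.0542, adjusted p = 7.16e-10). SIRT5, a mitochondrial desuccinylase, was at 10.3, 10.6 and 9.67 CPM and fell to 7.28, 8.15 and 5.81 CPM (log2 fold change -0.53, SE 0.126, adjusted p = 0.00168). SIRT1, SIRT2, SIRT3 and SIRT6 had log2 fold changes of 0.04, 0.09, 0.10 and 0.06 and were not called.

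Among the demethylases KDM7A, a JmjC enzyme that acts on H3K9 and H3K27 methylation, had the largest difference. It was at 9.02, 7.60 and 9.25 CPM in scrambled and 17.4, 17.2 and 15.1 CPM in NFIC KD samples. The groups did not overlap, and the log2 fold change was 0.95 (SE 0.105, adjusted p = 6.17e-07). Of the 3 KDM5 enzymes among the members, which remove H3K4 methylation, 2 were higher, where 33.0% of protein-coding genes were. KDM5 genes outside the rule for members are not counted here. KDM5A was at 96.7, 93.2 and 92.7 CPM in scrambled and 141, 131 and 140.4 CPM in NFIC KD samples, without overlap (log2 fold change 0.55, SE 0.0520, adjusted p = 9.55e-08). KDM5B rose by 0.53 on the log2 scale, while KDM5C had a log2 fold change of 0.12 and was not called (adjusted p = 0.0611). The summed level of KDM5A, KDM5B and KDM5C was 21.96 ± 0.267 FPKM in scrambled and 28.8 ± 0.506 FPKM in NFIC KD samples (SD, n = 3), a ratio of 1.31 (exact permutation p = 0.1). Genes for enzymes that add H3K4 methylation and genes for enzymes that remove it were both among those that rose.

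KDM1A (LSD1), the H3K4 demethylase of the CoREST complex, was at 132, 145 and 128 CPM in scrambled and 117, 119 and 131 CPM in NFIC KD samples. The groups overlapped, since NFIC shRNA replicate 3 lay above scrambled replicate 3. KDM1A passed the threshold by a small margin (log2 fold change -0.14, SE 0.0603, adjusted p = 0.0477), and the call was lost in 9 of 16 alternatives. The adjusted p was 0.0970 in DESeq2, 0.0653 with its size factors, 0.0677 with total counts, 0.0689 in limma and 0.0793 with the replicate block. It was 0.0543 and 0.201 without scrambled replicate 1 or 2, and 0.215 and 0.131 without NFIC shRNA replicate 1 or 2. Its paralog KDM1B (LSD2) was at 33.7, 32.1 and 34.0 CPM and rose to 48.1, 49.9 and 51.7 CPM without overlap (log2 fold change 0.58, SE 0.0636, adjusted p = 4.67e-07). KDM1B made up 19.3% of the summed FPKM of the 2 genes in scrambled and 28.4% in NFIC KD samples.

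KDM3B and KDM2A, which act on H3K9 and H3K36 methylation, rose by 0.37 and 0.21 on the log2 scale. KDM4C, an H3K9 and H3K36 demethylase, was at 41.4, 38.8 and 42.4 CPM in scrambled and 34.0, 37.0 and 28.1 CPM in NFIC KD samples, and fell without overlap (log2 fold change -0.31, SE 0.0862, adjusted p = 0.00555). KDM8 was expressed at a low level, at 2.77, 2.03 and 2.94 CPM in scrambled and 1.46, 1.90 and 1.65 CPM in NFIC KD samples. The KDM8 groups did not overlap (log2 fold change -0.62, SE 0.214, adjusted p = 0.0192), and the call was lost in DESeq2 (adjusted p = 0.0524), without scrambled replicate 1 or 3 (0.0625 and 0.0868) and without NFIC shRNA replicate 1 (0.0769). KDM6B, the inducible H3K27 demethylase, had a log2 fold change of -0.19 and was not called (adjusted p = 0.0626), but it passed the threshold as lower in 5 of 16 alternatives, with adjusted p down to 0.00231 without scrambled replicate 2. KDM2B, KDM4A, KDM4B and KDM4D, at -0.0004, 0.11, -0.06 and -0.52, were not called either.

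The bromodomain proteins bind acetylated histones. BRD3, a BET protein, was at 75.7, 70.5 and 71.0 CPM in scrambled and 98.2, 93.9 and 93.7 CPM in NFIC KD samples, without overlap (log2 fold change 0.40, SE 0.0544, adjusted p = 7.23e-06). BRD2, also a BET protein, rose by 0.20 on the log2 scale.

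BRD8, a subunit of the NuA4/TIP60 acetyltransferase complex, had the largest difference of the bromodomain members. It was at 88.2, 84.8 and 89.1 CPM in scrambled and 144, 131 and 152 CPM in NFIC KD samples, without overlap (log2 fold change 0.70, SE 0.0584, adjusted p = 1.85e-08). BRD1, the scaffold of HBO1 and MOZ complexes, was at 97.4, 94.8 and 102 CPM and rose to 114, 112 and 116 CPM (log2 fold change 0.21, SE 0.0517, adjusted p = 0.00179). BRD9, a subunit of the non-canonical BAF remodeler, was at 56.1, 60.1 and 57.4 CPM and fell to 50.3, 48.2 and 49.9 CPM (log2 fold change -0.23, SE 0.0588, adjusted p = 0.00302). BRD7, of the PBAF remodeler, was not called at a log2 fold change of -0.02.

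The enzymes work in complexes, and 164 other genes in 7 lists of complex subunits and related enzymes were examined, of which 163 were tested. With NFIC KD 68 (41.7%) were higher and 49 (30.1%) lower, at a median log2 fold change of 0.07. Of all genes 29.6% were higher and 30.3% lower, and of protein-coding genes 33.0% and 32.4%. With upper-quartile scaling 59 were higher and 60 lower, where over all genes 4953 were higher and 6503 lower. The other bromodomain proteins had 14 of 25 higher, 4 lower and a median of 0.17. The other histone methyltransferases had 9 of 24 higher, 9 lower and a median of -0.13. All 3 NSD genes, which methylate H3K36, rose by 0.29 to 0.37 on the log2 scale. Of the 8 protein arginine methyltransferases in the list 5 fell, namely PRMT1, PRMT3, PRMT5, PRMT6 and CARM1, and 0 rose. The JmjC proteins outside the KDM names had 5 of 12 higher and 5 lower, at a median of -0.06.

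**Figure D5:**
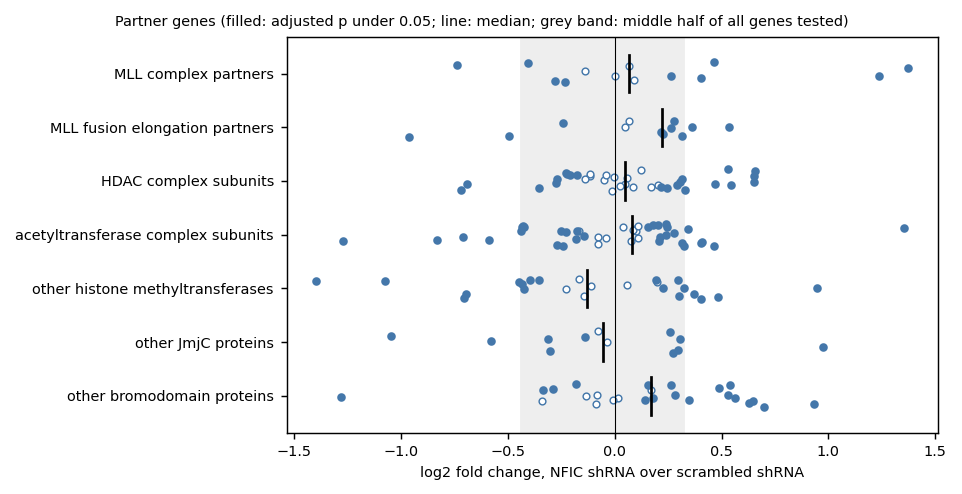
Log2 fold change of NFIC shRNA over scrambled shRNA (x axis) of the tested genes of 7 lists of complex subunits and related enzymes (rows, points spread vertically for legibility). Filled points have an adjusted p under 0.05, black lines are medians and the grey band is the middle part of all genes tested, from -0.44 to 0.33, and every median lies within the band.

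The other subunits of the KMT2 and SETD1 complexes went in both directions. Of 13 such partners 5 were higher (38.5%) and 4 lower (30.8%), at a median log2 fold change of 0.06. These shares were near the 33.0% and 32.4% of protein-coding genes. DPY30, a core subunit of all these complexes, was at 47.0, 46.0 and 45.5 CPM in scrambled and 27.7, 28.5 and 26.9 CPM in NFIC KD samples (log2 fold change -0.74). WDR5, another core subunit, fell by 0.41 on the log2 scale, RBBP5 rose by 0.40 and ASH2L was not called at -0.0008. CXXC1, which brings the SETD1 complexes to CpG islands, was at 70.3, 75.6 and 67.6 CPM and rose to 159.8, 165 and 178 CPM (log2 fold change 1.24), and WDR82, the other SETD1-specific subunit, rose by 0.47. HCFC2 rose by 1.37 on the log2 scale, from 9.25, 8.005 and 8.78 CPM to 21.7, 21.6 and 24.1 CPM, while its paralog HCFC1 fell by 0.23. PSIP1 (LEDGF), which tethers menin and KMT2A to chromatin, fell by 0.28.

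Of the 12 genes of the elongation machinery that MLL fusion proteins recruit, 7 were higher (58.3%) and 3 lower. Their median log2 fold change was 0.22. Among protein-coding genes 33.0% were higher and 32.4% lower. MLLT3, whose carboxy-terminal part is in the MLL::AF9 fusion, was at 9.02, 8.09 and 8.41 CPM in scrambled and 10.2, 7.46 and 8.71 CPM in NFIC KD samples, which overlap (log2 fold change 0.05, SE 0.125, adjusted p = 0.763). Its sign turned under upper-quartile scaling (-0.01) and without NFIC shRNA replicate 1 (-0.07). AFF4, the scaffold of the super elongation complex, and CCNT1, the cyclin of P-TEFb, rose by 0.54 and 0.36, and CDK9, its kinase, was not called at 0.07. MLLT6 and AFF3 fell by 0.96 and 0.49 on the log2 scale.

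Subunits of deacetylase complexes had 12 of 35 higher (34.3%) and 9 lower (25.7%), at a median log2 fold change of 0.05. The share of higher calls was near the 33.0% of protein-coding genes, and that of lower calls was under their 32.4%. TBL1X, a corepressor subunit that acts with HDAC3, fell by 0.72 on the log2 scale, while its paralog TBL1XR1 rose by 0.25 and NCOR1 rose by 0.30. MIER1 and SAP30, subunits that act with HDAC1 and HDAC2, rose by 0.66 and 0.65. In the same list RCOR1, the CoREST scaffold that holds KDM1A, rose by 0.55.

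Subunits of acetyltransferase complexes had 16 of 42 higher (38.1%) and 15 lower (35.7%), at a median log2 fold change of 0.08, near the 33.0% and 32.4% of protein-coding genes. SUPT3H and SGF29, subunits of SAGA, fell by 1.27 and 0.83 on the log2 scale, as did USP22, the deubiquitinase of SAGA, by 0.71. MORF4L1, a chromodomain subunit of NuA4, rose by 1.352, from 179.8, 180.2 and 193 CPM to 463, 455 and 493 CPM, and its reads are uncertain because near-identical MORF4 copies exist. JADE2 rose by 0.46. ING3, ING4 and ING5, which read H3K4 methylation for MYST complexes, fell by 0.43 to 0.44 on the log2 scale.

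Of the remaining lists, SMYD2 and PRMT1 fell by 1.40 and 1.08 on the log2 scale, and ASH1L, an H3K36 methyltransferase, and PRDM2 rose by 0.94 and 0.48. RIOX2 and JMJD4 fell by 1.05 and 0.58, whereas JMJD6 and JARID2, a PRC2 cofactor, rose by 0.97 and 0.31. TRIM66 and SP110 fell by 1.28 and 0.34, and BAZ2A, of the nucleolar remodeling complex, and ATAD2 rose by 0.93 and 0.70. The overlap of these partner genes with other genes was not computed.

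In scrambled samples the highest level per length among the members was that of KDM4A, at 64.3 ± 1.65 FPKM, followed by HDAC1 at 54.0 ± 1.31 and BRD2 at 53.5 ± 2.45 FPKM (SD, n = 3). HDAC1 and BRD2 do not differ beyond their spread, and 40.2% of the exon bases of KDM4A are shared with another gene on the same strand. The next members were KDM1A at 24.5, BRD7 at 21.8 and KAT2A at 20.2 FPKM, and KAT2A was at 8.96 FPKM with NFIC KD. The lowest members were SIRT4, HDAC11 and KDM4D, at 0.212, 0.214 and 0.264 FPKM, which do not differ beyond their spread.

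The promoters of the members were searched for motifs of nuclear factor I. Promoter sequences from RefSeq (GRCh38.p14, windows around a transcript start) were matched for 62 of the 69 members, with 99 promoters. The motif TGGCNNNNNGCCA, a short form of the palindrome bound by nuclear factor I proteins, was searched on both strands. It was found in 1 member promoter (1.01%), that of KDM4A, and in 0.906% of all 35116 promoters, and the full palindrome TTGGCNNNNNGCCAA was in 0 member promoters and 0.0285% of all. The extended single site TTGGCA was in 7 member promoters (7.07%) and in 12.5% of all, and the 6 genes concerned were HDAC4, HDAC8, KAT6B, KDM4B, KMT2B and SETD1A. The KDM4A match is shown because it was the only palindromic one, with the matched bases in capitals.
KDM4A promoter: ctggtgtaTGGCTTGCAGCCAcccttgaa
It lies at chr1:43650083-43650111 on the plus strand, with the match 58 bases before the transcript start, and KDM4A was not called. These matches are a description of letters and no binding was measured.

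Gene length was set beside the fold change. Across genes, which are not independent replicates, Spearman's rho between the deposited gene length and the log2 fold change was 0.17 over the 68 members and 0.10 over 13800 protein-coding genes. Of the 34 members with more than the median of 7745 bases 19 were higher (55.9%) and 7 lower (20.6%). Of the 34 others 11 were higher (32.4%) and 8 lower (23.5%), against 33.0% and 32.4% of protein-coding genes. Of the called members, BRD3, KDM8, DOT1L, SIRT5, HDAC3, BRD2 and KDM2A have 18.6%, 14.5%, 11.3%, 9.37%, 9.24%, 7.03% and 6.54% of their exon bases opposite another gene, whose reads cannot be told apart from theirs. The same limit holds for BRD7 and KAT5, which were not called and have 41.9% and 38.6% of exon bases opposite other genes. Leaving out members with more than 5% of exon bases shared with another gene, a choice made after seeing the data, kept 48 members, of which 25 were higher and 10 lower.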

How the data were processed

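Bulk mRNA of 6 THP-1 samples was sequenced in paired ends. The deposited counts are not normalized. Per the labels and the methods of the study, the authors used Trim Galore for trimming, STAR for alignment to GRCh38 and featureCounts for counting. The strand setting was not given in the sources used here. The authors also deposited a normalized signal (counts over size factors from DESeq2) with its mean, and FPKM values made from the normalized counts and the gene length, which were used here for levels between genes. The deposited log2 fold change, its standard error and Wald score, and the p-value columns hold the authors' own comparison and were not used.

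Counts were tested with edgeR 4.0.16 (R 4.3.3; TMM, filter on low counts, robust quasi-likelihood test, no replicate block), with Benjamini-Hochberg adjustment over 19182 genes and a threshold of 0.05. The standard error is the size of the log2 fold change divided by the square root of F. Sums and shares were compared with exact permutation tests in scipy 1.17.1. Alternatives were other scalings, DESeq2 1.42.0, limma 3.58.1 on log2(normalized counts + 1), other filters, each sample left out, replicate blocks, an adjusted p under 0.01 and protein-coding genes only. The test was tried on simulated data. Depth was 20369543 to 24809720 counts per sample.

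The members, gene lists, tests and rules were chosen with earlier results of these data known. Values in every sample are given for MEN1, DOT1L, KMT2A, EP300, CREBBP, KDM1A, HDAC1, and up to 3 called members per role and direction with the largest change, a mean of at least 1 CPM and no overlap between groups. Up to 2 partner genes per list and direction followed the same filter, and the other partner genes were named after their values were seen. Some genes that the rules would name are not reported here. Positions and exon overlaps come from GENCODE annotation of GRCh38.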

Additional observations from a re-analysis of the deposited data

How the results depend on the processing

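Over the alternatives run on all members, 27 to 32 were higher and 13 to 17 lower, and the counts over all genes and over partner genes also stayed within 1.5 times those reported. With upper-quartile scaling 27 members were higher and 17 lower, and 61.4% of their calls were higher, against 66.7% as reported. Over all genes 43.2% of calls were higher with this scaling, against 49.4% as reported. For partner genes this scaling gave 59 higher and 60 lower, against 68 and 49 as reported. Over all genes it gave 4953 higher and 6503 lower, against 5676 and 5810. The partner counts thus depended on the scaling, and the calls over all genes shifted in the same direction. Of 45 called members 40 kept direction and call in all 16 refits and 0 reversed, and 5 lost the call in at least 1. Among these EP300, KDM1A, KDM8 and KMT5C reached adjusted p of 0.123, 0.215, 0.0868 and 0.0720, and all were lost at an adjusted p under 0.01. The 28 partner genes chosen by the rule kept their calls. Since the rule took called genes with the largest changes in these same samples, this says little about the other partner genes. Of the members not called 6 passed in at least 1 alternative, KDM6B in 5, KDM4A in 4, KDM5C and HDAC10 in 3, and HDAC9 and SETD6 in 1.

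Whether the samples were handled in pairs is not known. Deviations from the group means, between samples of the same replicate number, had correlations of 0.0563, -0.0862 and -0.0446, which cannot decide it. The titles are C1, C3 and C4 and N1, N2 and N3, so C4 and N2 share no number and were paired as those left over. In this second pairing, C1 with N1, C4 with N2 and C3 with N3, the correlations were 0.0563, 0.0267 and 0.145. With the replicate block 29 members were higher and 14 lower, with 2 calls lost. With a block by the second pairing 32 were higher and 17 lower, with KDM5C, KDM6B, KDM4A and HDAC10 among the calls gained.

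Signs turned only for genes that were not called. HDAC1 was at 0.0078 with DESeq2's size factors, 0.018 with total counts, 0.0078 in DESeq2, 0.0081 in limma and 0.0019 with no filter, and between -0.022 and 0.013 with a sample left out. KDM2B was at 0.0076, 0.018, 0.0076, 0.0078 and 0.0018 in the same settings, and between -0.017 and 0.016 with a sample left out. Upper-quartile scaling gave -0.029 for HDAC8, -0.010 for MLLT3 and -0.020 for SIRT1. With a sample left out the ranges were -0.033 to 0.0081 for BRD7, -0.067 to 0.16 for MLLT3, -0.00097 to 0.064 for SIRT1 and -0.050 to 0.17 for SIRT6. The causes were not tested. At this depth genes near 1 CPM, such as HDAC11 and KDM4D, had standard errors of 0.266 and 0.376, so only large differences could be detected.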
